A study of Mus musculus with 63 samples.

Results

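RNA from hearts of the inbred mouse strain labelled 129 was compared with RNA from hearts of the strain labelled NOD, the non-obese diabetic mouse, over all genes of the deposited count table. The members are the 8 libraries of each strain, 16 of the 63 in the series. The series covers the 8 strains from which the Diversity Outbred mice were bred, and all its mice, those of both strains here included, were kept on a diet rich in fat and sugar with 45% fat. No group on another diet was analysed, so each value holds for hearts on this diet. The labels give the strain, a replicate number, the tissue and the diet, but neither age nor sex. Xist, the RNA of the inactive X chromosome, was at 233 to 410.4 CPM (counts-per-million) in 4 libraries of 129 and at 249 to 325 in 4 libraries of NOD, and at 2.25 or less in the other 4 of each strain, so both strains hold the same mix. The deposited counts summed to 23063493 to 37563891 per library in 129 and to 32054818 to 35509628 in NOD.

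CPM are given here on a scale that adjusts for differences in library composition. They are not divided by gene length, so a gene's level is compared between strains and not with other genes. A gene was called where the adjusted p of edgeR's quasi-likelihood test was under 0.05. Fold changes are log2 of 129 over NOD, so that 1 is a doubling in 129, and each is given with its standard error (SE) after the ± sign. Nothing in the labels says that replicates are separate animals. The p-values of edgeR measure the spread between libraries within strains, estimated over all 63 of the series.

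NOD mice are a classical model of autoimmune diabetes. In NOD mice, lymphocytes enter the pancreatic islets and also other organs such as salivary glands, and many risk loci have been mapped by crosses with other strains. The strain labelled 129 belongs to a family of strains long used as a source of embryonic stem cells and is not prone to autoimmune diabetes. The heart takes most of its energy from fatty acids, with glucose, lactate, ketone bodies and branched-chain amino acids as further fuels, and its beat depends on ion channels, calcium cycling and the proteins of the sarcomere. These are the groups of genes by which the comparison is ordered.

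Tests were made over all 63 libraries with the 8 strains sharing 1 estimate of the spread. The 129 hearts differed from the NOD hearts in 4224 of 16425 tested genes (25.7%). Of these, 1947 (11.9% of tested genes) were higher in 129 and 2277 (13.9%) were lower. A difference of at least 2-fold was seen in 421 of the higher and 742 of the lower genes. These shares are the background for each list of genes described here. The median log2 fold change of all tested genes was -0.0045, and the median size of a called change was 0.55. In 1688 genes (10.3%) the 8 libraries of 129 did not overlap with the 8 of NOD. In 754 of them (4.59% of tested genes) every 129 library was above every NOD library, and in 934 (5.69%) every 129 library was below. Among the 28 pairs of strains this pair had the fifth lowest number of called genes. The numbers ran from 3490 (129 and B6) to 8841 (129 and Cast) for the other pairs with 129, and from 3643 (NOD and AJ) to 9055 (NOD and Cast) for the other pairs with NOD.

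**Figure D1:**
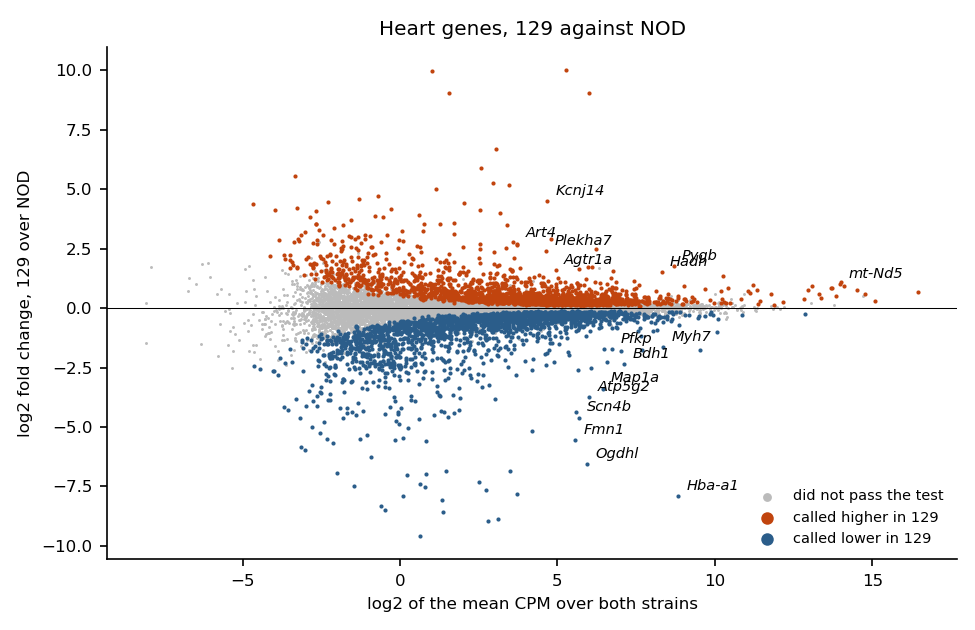
Each point is a gene with a count in either strain, placed by the log2 of its mean CPM over both strains and its log2 fold change of 129 over NOD. Coloured points passed the test, 1947 higher in 129 and 2277 lower, and the labelled genes are described in the text.

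The means of the other 6 strains give each difference a scale. Of the 4224 called genes, 129 alone lay outside the range of the other 6 strain means in 1039 and NOD alone in 976. Both lay outside it in 258 genes and neither in 1951. For the genes higher in 129, 129 alone was outside in 494 and NOD alone in 443. For the genes lower in 129, the numbers were 545 and 533. The numbers for 129 alone and NOD alone were thus similar, and for 46.2% of the called genes both strain means lay within the range of the other strains. The same was not counted over all tested genes, so these shares have no baseline.

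The genes with the widest gaps between the strains at an appreciable level included an ion channel gene on each side. These leading genes were taken only from genes without overlap between the strains, so their lack of overlap follows from the choice. Kcnj14, the inward rectifier potassium channel Kir2.4 (chromosome 7, 45816461 to 45824756, GRCm38), lay between 38.7 and 64.5 CPM in 129 hearts with a median of 47.7, against 1.56 to 3.60 CPM with a median of 1.89 in NOD hearts. Its log2 fold change was 4.48 ± 0.25, adjusted p = 4.19e-23 by edgeR, with all 8 libraries of 129 above all 8 of NOD, and the other 6 strains had means of 0.801 to 9.52 CPM, so 129 was the highest of the 8 strains. Scn4b, the beta-4 subunit of voltage-gated sodium channels (chromosome 9, 45138437 to 45154152), had a median of 3.76 CPM in 129 hearts (lowest 2.15, highest 7.91), against 98.03 CPM in NOD hearts (lowest 91.2, highest 108). It was lower in 129 with a log2 fold change of -4.61 ± 0.26, adjusted p = 2.24e-22, again with no overlap, and 129 lay below the other 6 strains, whose means were 9.87 to 156 CPM.

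Further genes were far higher in 129. Plekha7, a protein of the adherens junction (chromosome 7, 116123485 to 116308376), ran from 37.8 to 47.3 CPM over the 129 libraries, around a median of 41.8, against 6.36 to 9.15 CPM around 7.87 over the NOD libraries. Its log2 fold change was 2.41 ± 0.14, adjusted p = 2.17e-22, and 129 lay above the other 6 strains (6.21 to 14.98 CPM). Art4, a surface ADP-ribosyltransferase that carries the Dombrock blood group in humans (chromosome 6, 136848451 to 136857733), had a median of 22.99 CPM in 129 hearts (lowest 20.6, highest 26.2), against 3.45 CPM in NOD hearts (lowest 2.71, highest 4.12), with a log2 fold change of 2.71 ± 0.13, adjusted p = 1.71e-26. Neither gene overlapped between the strains. Lrrc15, a leucine-rich repeat membrane protein, lay between 38.01 and 57 CPM in 129 hearts with a median of 48.2, against 5.11 to 7.88 CPM with a median of 6.76 in NOD hearts. Its log2 fold change was 2.89 ± 0.20, adjusted p = 1.30e-18, and both strains lay within the range of the others. Hrasls, which encodes a phospholipid-modifying enzyme, and Sorcs2, a sorting receptor, were separated by 2.80 and 2.52 log2 units, with NOD below the other 6 strains in each. The remaining leading genes higher in 129 were Arc (log2 fold change 2.65), Trim68 (2.48), the kinesin Kif5c (2.34), the histidine ammonia-lyase Hal (2.11) and Adam22 (2.10), all with no overlap between the strains.

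The genes far lower in 129 included an enzyme, an actin nucleator and a microtubule protein. Ogdhl, which encodes a homologue of the E1 subunit of 2-oxoglutarate dehydrogenase (chromosome 14, 32322019 to 32347820), lay between 0.635 and 2.53 CPM in 129 hearts with a median of 1.22, against 92.2 to 148 CPM with a median of 119 in NOD hearts. The log2 fold change was -6.58 ± 0.24, adjusted p = 4.84e-32. The means of the other 6 strains ran from 0.859 to 135 CPM, and both strain means lay within that range. Fmn1, the formin 1 gene (chromosome 2, 113327736 to 113716767), had a median of 1.81 CPM in 129 hearts (lowest 1.64, highest 2.75), against 92.6 CPM in NOD hearts (lowest 74, highest 105), and its log2 fold change was -5.56 ± 0.21, adjusted p = 9.30e-31. Here 129 was the lowest of the 8 strains. Map1a, a microtubule-associated protein (chromosome 2, 121289600 to 121310832), ran from 11.6 to 18.8 CPM over the 129 libraries, around a median of 14.9, against 137 to 180.5 CPM around 160.4 over the NOD libraries, with a log2 fold change of -3.38 ± 0.10, adjusted p = 7.42e-37. For Map1a it was NOD that stood apart, above the other 6 strains at 13.7 to 32.9 CPM. Part of Map1a overlaps the exons of Ppip5k1 on the opposite strand, at 76.6 CPM in 129 and 89.5 CPM in NOD. The further genes of this kind were the endocytic adaptor Epn3 (log2 fold change -2.83), the myosin light chain Myl1 (-2.58), Psmc3ip (-2.31, with an exon overlap with Mlx on the opposite strand) and Armc2 (-2.28), none with an overlap between the strains.

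**Figure D2:**
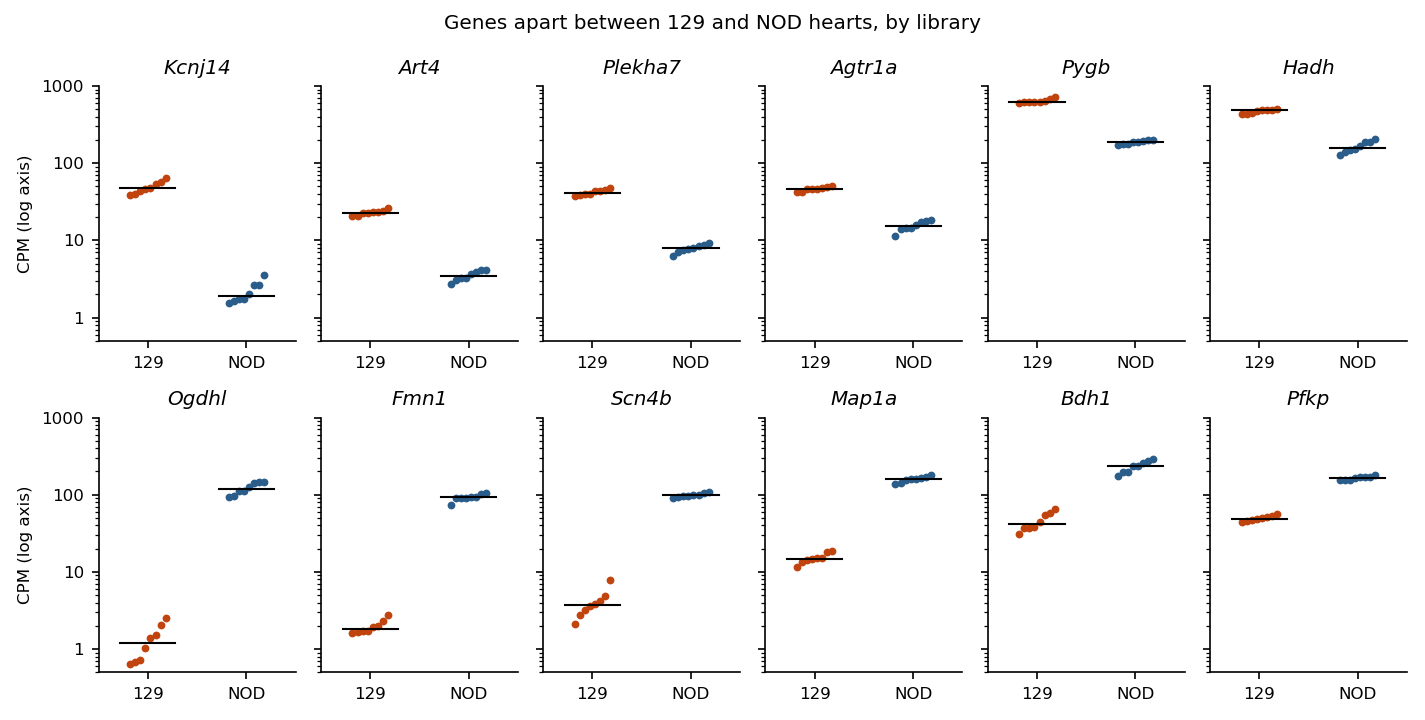
Expression in CPM (log axis) of 12 genes in each library of 129 (left) and NOD (right), with the line at the median of 8. In each panel the strains do not overlap, with 129 above NOD in the upper row and below NOD in the lower row. The leading genes among them were taken only from genes without overlap.

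Some of the widest gaps lie between genes that are nearly the same in sequence, and several of these are shown here with their partner. Kcnj14 and Myl1, described above, also have near-identical copies, Gm5522 (99.1% identity) and Mylf-ps (99.3%). Neither copy has counts in the deposited table, so no sum could be made for Kcnj14 or Myl1. The aligned transcripts of the adult alpha globin genes Hba-a1 and Hba-a2 differ at 1 of 538 bases, and those of Ncoa4, which encodes the cargo receptor for ferritin, and the processed pseudogene Gm6768 at 2 of 1878. The transcripts of Atp5g2, which encodes the c subunit of the ATP synthase, and of Gm10175 are identical over 645 bases. The stretches below show what tells the partners apart, taken from GENCODE M21 transcripts (GRCm38, 5′ to 3′), with the differing base in capitals. For the globin genes, a read of the aligned part that does not cover that base matches both genes. For Ncoa4 and Gm6768, 1 of the 2 differing bases is shown. They lie on the plus strand at chr11:32284328-32284357 (Hba-a1), chr11:32297145-32297174 (Hba-a2), chr14:32176521-32176550 (Ncoa4, in the coding sequence like both globin stretches) and chr12:119262274-119262303 (Gm6768).
Hba-a1: gcatgcctctctggaCaaattccttgcctc
Hba-a2: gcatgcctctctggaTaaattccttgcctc
Ncoa4: tgtgagaaggaagccAtgtataaatggctt
Gm6768: tgtgagaaggaagccGtgtataaatggctt

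Alone, Hba-a1 lay between 1.96 and 4.96 CPM in 129 hearts with a median of 3.72, against 614 to 1312 CPM with a median of 843 in NOD hearts, a log2 fold change of -7.89 ± 0.33, adjusted p = 8.10e-29. Hba-a2 had medians of 1200.2 CPM in 129 and 1209 CPM in NOD. The sum of both genes was 1164 ± 252 CPM in 129 and 2232 ± 609.7 CPM in NOD (SD, n = 8 each), lower in 129 with a log2 fold change of -0.94 ± 0.21, adjusted p = 0.000373. Alpha globin as a whole was therefore lower in 129 by much less than Hba-a1 alone. Between 129 and NOD, only 129 had nearly all of it assigned to Hba-a2. Hba-a1 was as low in AJ, B6 and Cast, with means of 3.56, 2.29 and 2.55 CPM. Its means were 749 CPM in NZO, 1257 CPM in PWK and 386 CPM in WSB.

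In the other pairs the counts lay with 1 gene in 129 and with its partner in NOD. Atp5g2 had a median of 9.60 CPM in 129 hearts (lowest 4.24, highest 13.9), against 118 CPM in NOD hearts (lowest 109, highest 142), while Gm10175 ran from 120.4 to 142 CPM in 129 and reached no more than 0.54 CPM in NOD. Alone, Atp5g2 was lower in 129 at -3.73 ± 0.17, adjusted p = 1.27e-27, but the sum was slightly higher in 129, at 138 ± 7.72 CPM against 120.3 ± 10.96 CPM in NOD (log2 fold change 0.20 ± 0.05, adjusted p = 0.00212). Ncoa4 ran from 17.1 to 21.8 CPM over the 129 libraries, around a median of 19.9, against 109 to 116 CPM around 113 over the NOD libraries. Gm6768 lay between 70.6 and 82.2 CPM in 129 and at 0.377 CPM or less in NOD, and the sum with Ncoa4 did not pass the test (log2 fold change -0.24 ± 0.09, adjusted p = 0.0532). For these pairs the level of 1 gene alone is uncertain. Of the leading genes higher in 129, the histone gene Hist2h2aa1 was also of this kind, with a log2 fold change of 4.01 alone and 0.80 ± 0.08 (adjusted p = 2.77e-12) summed with 3 overlapping or similar genes.

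**Figure D3:**
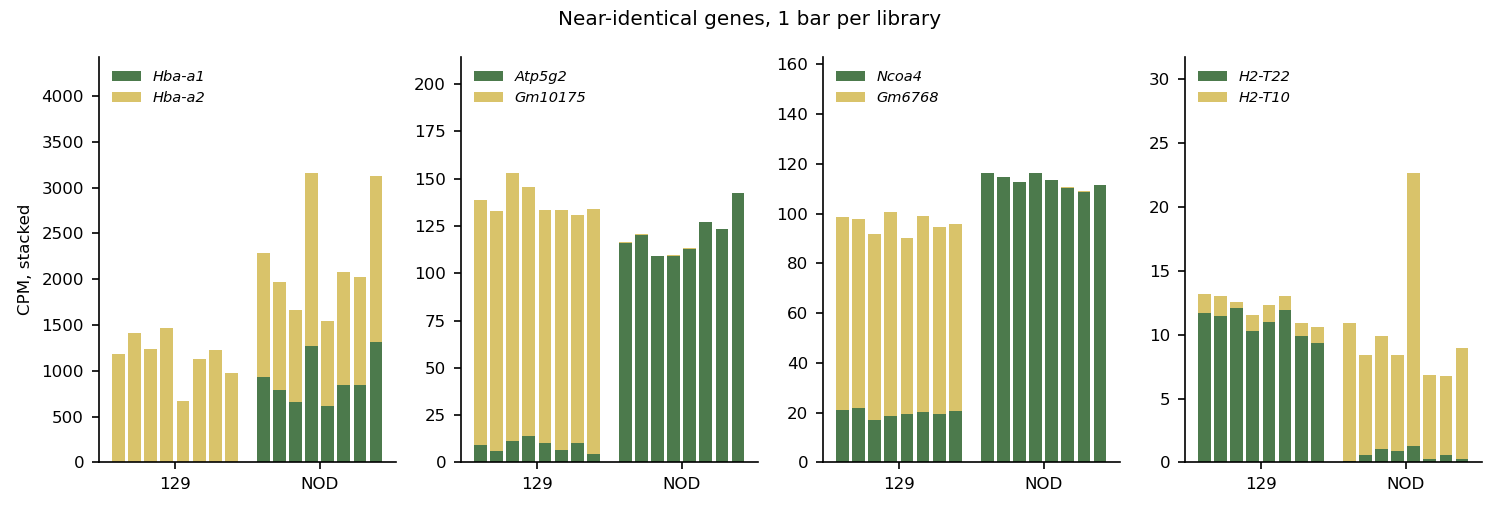
Stacked CPM of 4 pairs of near-identical genes, 1 bar per library, with the 8 libraries of 129 on the left and the 8 of NOD on the right. Gm10175, Gm6768 and H2-T22 hold most of their pair's sum in 129, while Atp5g2, Ncoa4 and H2-T10 hold most of it in NOD.

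Transcripts of the mitochondrial genome, which encodes core subunits of the respiratory chain, took a larger part of the counts in 129. They held 27.0 ± 1.5% of the counts in 129 and 19.5 ± 0.878% in NOD (SD, n = 8 each), a difference of 7.49 percentage points (two-sided exact permutation test over 12870 splits, p = 0.000155, the smallest that these libraries can give). The shares ran from 25.1% to 29.2% in 129 and from 18.5% to 21.1% in NOD, with no overlap. Of its 13 protein genes 12 were called, all higher in 129, with a median log2 fold change of 0.76. The largest was mt-Nd5, a core subunit of complex I, which lay between 17896 and 25693 CPM in 129 hearts with a median of 20918, against 9839.6 to 12269.5 CPM with a median of 10374 in NOD hearts (log2 fold change 1.01 ± 0.08, adjusted p = 2.39e-17). mt-Nd1 and mt-Nd6, of the same complex, were at 0.94 and 0.97, and the ribosomal RNA mt-Rnr2 at 0.94. The exception was mt-Atp8, at 1656 ± 522 CPM in 129 and 1272 ± 480.3 CPM in NOD (SD, n = 8 each), which did not pass the test.

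The nuclear genes of the same complexes had few calls. Of 43 nuclear subunits of the respiratory chain and ATP synthase 2 were called higher and 1 lower in 129 (6.98% of the list, beside 25.7% of all genes), and the list's median was 0.06. Atp5b, the beta subunit of the ATP synthase, and Ndufv1, a complex I subunit, were the higher genes at 0.14 and 0.18, and neither was called without NOD replicates 3 and 5. Atp5b also lost its call when any 1 of 10 libraries was left out. Cox7a1, a subunit of cytochrome c oxidase in muscle, was the lower gene (-0.35 ± 0.11, adjusted p = 0.0184) and lost its call without NOD replicate 8.

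Among genes of fatty acid use, 1 enzyme of beta-oxidation stood out. Hadh, the short-chain hydroxyacyl-CoA dehydrogenase of the mitochondrial matrix (chromosome 3, 131233419 to 131272101), had a median of 482 CPM in 129 hearts (lowest 428, highest 503), against 159 CPM in NOD hearts (lowest 128, highest 208). Its log2 fold change was 1.51 ± 0.10, adjusted p = 1.84e-19. No libraries overlapped, and the other 6 strains had means of 414 to 508 CPM, so NOD lay below all of them. Of 24 genes of fatty acid oxidation 3 were higher and 3 lower in 129, with a median of 0.10, and the 25% called is near the 25.7% of all genes. The lower ones were Acad11 (-0.59 ± 0.09, adjusted p = 9.30e-07), Echs1 (-0.33) and Ech1 (-0.31). Eci1 and Acaa2, the other higher genes, were at 0.30 and 0.28 and lost their calls without NOD replicates 3 and 5.

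In the list of fatty acid uptake, storage and PPAR targets 1 of 27 was called higher and 5 lower in 129 (22.2% called, near the 25.7% of all genes), around a median of -0.22, and without NOD replicates 3 and 5 the counts were 0 and 6. Plin2, which coats lipid droplets, lay between 40.05 and 50.1 CPM in 129 hearts with a median of 43.8, against 53.8 to 63.3 CPM with a median of 58.7 in NOD hearts, with no overlap (-0.40 ± 0.10, adjusted p = 9.48e-04). Dgat1, which makes triglycerides, was at -0.32 and likewise did not overlap. The well-known PPAR targets Pdk4 and Angptl4 did not pass the test, at log2 fold changes of -0.38 and -0.95. In the list of lipid and cholesterol synthesis 1 of 26 was higher and 4 were lower (19.2% called, median -0.09), with 0 and 3 without those libraries.

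The genes of glucose use held opposite changes in isoforms of 2 enzymes. Of 30 genes 3 were called higher and 9 lower in 129 (40% called), with a median of -0.07, or 1 and 8 without NOD replicates 3 and 5. Pygb, the brain isoform of glycogen phosphorylase (chromosome 2, 150786735 to 150831758), lay between 604 and 718 CPM in 129 hearts with a median of 624, against 171 to 202 CPM with a median of 188 in NOD hearts. It was higher in 129 by 1.77 ± 0.13, adjusted p = 9.06e-18, and NOD lay below the other 6 strains (364 to 961 CPM). Pfkp, the platelet isoform of phosphofructokinase (chromosome 13, 6579768 to 6648777), had a median of 49.2 CPM in 129 hearts (lowest 44.4, highest 55.5), against 167 CPM in NOD hearts (lowest 153, highest 181), lower in 129 at -1.74 ± 0.12, adjusted p = 3.27e-19. Both were separated in every library. Exons of Pfkp overlap those of Pitrm1 on the opposite strand, at 50.6 CPM in 129 and 48.8 CPM in NOD. Further genes lower in 129 were Gapdh (-0.82, or -0.80 with 10 similar genes added), the basal glucose transporter Slc2a1 (-0.67), the hexokinase Hk1 (-0.39) and the liver isoform Pfkl (-0.31). Slc2a4, the insulin-responsive transporter GLUT4, ran from 322 to 379 CPM over the 129 libraries, around a median of 344, against 264 to 318 CPM around 297 over the NOD libraries, and its call (0.23 ± 0.09, adjusted p = 0.0491) was lost when any 1 of 11 libraries was left out.

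At the entry to the citric acid cycle the regulators of pyruvate dehydrogenase differed in direction. Pdk1, a kinase that switches the enzyme off, lay between 168 and 192 CPM in 129 hearts with a median of 181, against 319.6 to 367 CPM with a median of 352 in NOD hearts (log2 fold change -0.95 ± 0.12, adjusted p = 7.32e-10). The phosphatases that switch it on differed in sign, with Pdp1 higher in 129 (0.54 ± 0.08, adjusted p = 2.52e-07) and Pdp2 lower (-0.67 ± 0.17, adjusted p = 0.00144). None of these overlapped between the strains. Suclg2, the GTP-forming succinyl-CoA ligase subunit, was higher in 129 by 0.75 ± 0.10, adjusted p = 5.08e-09, and Mpc1 of the pyruvate carrier lower at -0.35 ± 0.08, adjusted p = 2.66e-04. In all, 5 of 27 genes of the list were higher and 3 lower (29.6% called, median 0.06).

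Bdh1, which oxidises beta-hydroxybutyrate as the first step of ketone body use (chromosome 16, 31422280 to 31458901), had a median of 41.6 CPM in 129 hearts (lowest 30.6, highest 65.3), against 234 CPM in NOD hearts (lowest 176, highest 294). Its log2 fold change was -2.34 ± 0.19, adjusted p = 1.87e-15, and the strains lay on opposite sides of all others, 129 below and NOD above their means of 49.7 to 209 CPM. In the list of ketone body and branched-chain amino acid breakdown 2 of 21 genes were higher and 5 lower (33.3% called, median -0.09), and the summed level of the list overlapped between the strains. Bcat2, the mitochondrial branched-chain aminotransferase, was higher in 129 (0.66 ± 0.08, adjusted p = 1.91e-10), as was Mut, the methylmalonyl-CoA mutase (0.43). Subunits of the next enzyme were lower, with Bckdha at -0.49 ± 0.07, adjusted p = 1.06e-07 and Dbt at -0.34, as was Ivd of leucine breakdown at -0.39. These 5 genes did not overlap between the strains.

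Insulin and IGF signalling had called genes on both sides, 4 higher and 6 lower of 23 (43.5% called, median -0.05). Igf2, the growth factor, lay between 41.7 and 50.1 CPM in 129 hearts with a median of 46.8, against 18.5 to 24.1 CPM with a median of 22.1 in NOD hearts (1.10 ± 0.12, adjusted p = 4.86e-11). Akt1, the kinase downstream of the insulin receptor, ran from 126 to 158 CPM over the 129 libraries, around a median of 149, against 89.7 to 106 CPM around 95.6 over the NOD libraries. It was higher in 129 by 0.58 ± 0.08, adjusted p = 1.30e-08, with 129 above and NOD below the other 6 strains. Lower in 129 were the receptor Insr (-0.35), Tbc1d4, the Akt substrate that governs GLUT4 traffic (-0.63 ± 0.11, adjusted p = 5.39e-06), the Akt inhibitor Trib3 (-0.91) and the binding proteins Igfbp5 (-0.56) and Igfbp6 (-0.64). The values of these 7 genes did not overlap between the strains.

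Most called genes of the sarcomere were higher in 129, apart from the slow myosin. Of 24 genes 10 were called higher and 1 lower (45.8% called), around a median of 0.17. Myom2, a protein of the M-band, lay between 1463 and 2164 CPM in 129 hearts with a median of 1729, against 797 to 1129 CPM with a median of 1014 in NOD hearts (0.84 ± 0.17, adjusted p = 1.24e-04). Tpm1, the main cardiac tropomyosin, had a median of 2653 CPM in 129 hearts (lowest 2588, highest 2816), against 1692 CPM in NOD hearts (lowest 1529.7, highest 2136), at 0.62 ± 0.07, adjusted p = 8.30e-12. Myh7b was at 0.68, titin (Ttn) at 0.43 and Myh6, the fast alpha myosin that makes up most of the adult mouse ventricle, at 0.29 ± 0.09, adjusted p = 0.00769. Without NOD replicates 3 and 5 the counts were 6 higher and 2 lower, and Ttn was not called. The summed level of the list ran from 93251 to 98327 CPM in 129 and from 72255 to 88087 CPM in NOD. The general cardiomyocyte markers, of which 4 were higher and 1 lower of 13 (median 0.10), summed to 89524 to 96938 CPM in 129 and 73691 to 89465 CPM in NOD, also with no overlap, and their part in the sarcomere counts was not tested. In whole tissue, fewer cells of a type and less RNA per cell cannot be told apart.

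Myh7, the slow beta myosin that is abundant in the fetal ventricle and returns under load, was the lower one. It ran from 125 to 189 CPM over the 129 libraries, around a median of 158, against 374 to 796 CPM around 472 over the NOD libraries (chromosome 14, 54970688 to 54994634), with no overlap and a log2 fold change of -1.65 ± 0.34, adjusted p = 1.16e-04. The means of the other 6 strains ran from 124 to 2667 CPM. Exons of the non-coding RNA Mhrt overlap those of Myh7 on the opposite strand, at 20.1 CPM in 129 and 23.5 CPM in NOD. Summed with its near-identical copy Myh6, at 38412 CPM in 129 and 31435 CPM in NOD, the log2 fold change was 0.27. That sum is nearly all Myh6 and cannot show the direction of Myh7. The lower value of Myh7 holds only as far as the counting told the myosins apart.

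The list of stress and fetal genes of heart muscle, which also holds Myh7, had 0 of 18 higher and 7 lower in 129 (38.9% called, median -0.31). Ankrd1, a stretch-responsive protein of the sarcomere, lay between 526 and 960.2 CPM in 129 hearts with a median of 703, against 1060.0 to 2022 CPM with a median of 1306 in NOD hearts (-1.0 ± 0.17, adjusted p = 2.03e-06), and Xirp2 and the skeletal actin Acta1 were lower at -0.44 and -0.72. The natriuretic peptides, the best known members, did not pass the test, with Nppa at -0.19 and Nppb at -0.23.

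The potassium channels held 9 higher and 5 lower genes of 27, with a median of 0.18 and 51.9% called. After Kcnj14 the largest positive change was in Kcne1, the accessory subunit of the slow delayed rectifier, which had a median of 11 CPM in 129 hearts (lowest 7.62, highest 14.6), against 4.38 CPM in NOD hearts (lowest 2.92, highest 7.09) (1.27 ± 0.24, adjusted p = 2.08e-05). Subunits of the fast transient outward current were also higher, Kcnd2 at 47.3 ± 4.66 CPM in 129 and 31.2 ± 3.86 CPM in NOD (SD, n = 8 each) with a log2 fold change of 0.60, and Kcnd3 with 0.42. Kcnh2 (ERG) and Kcnj12 (Kir2.2) were at 0.36 and 0.44. Lower in 129 was Kcnj11, the pore of the ATP-sensitive channel, which lay between 25.1 and 30.01 CPM in 129 hearts with a median of 27.1, against 34.8 to 45.9 CPM with a median of 42.9 in NOD hearts (-0.61 ± 0.14, adjusted p = 5.89e-04). For Kcnj11, 129 lay below and NOD above the other 6 strains. Kcnc1, Kcna7 and Kcnn1 were lower at -1.66, -0.69 and -0.61. Without NOD replicates 3 and 5 the list had 8 higher and 5 lower.

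Of the 27 genes of sodium and calcium handling 3 were higher and 3 lower (22.2% called, near the 25.7% of all genes, median 0.04). Scn4b, described above, was among the lower ones. Casq1, the calsequestrin of skeletal muscle, was higher (1.11 ± 0.16, adjusted p = 6.25e-08), as were the calcium and calmodulin dependent kinase Camk2d (0.54 ± 0.08, adjusted p = 1.98e-07) and Asph (0.45), and Hrc, a calcium-binding protein of the sarcoplasmic reticulum, was lower (-0.24). The genes that carry most of the calcium cycle, Atp2a2, Ryr2 and Pln, were at 0.13, 0.10 and 0.06 and did not pass the test. Sri, which encodes sorcin, a calcium sensor of the ryanodine receptor outside this list, was lower in 129 at -1.24 ± 0.09, adjusted p = 5.67e-18. It ran from 21.05 to 25.3 CPM over the 129 libraries, around a median of 22.9, against 47.9 to 58.1 CPM around 56.5 over the NOD libraries, with 129 below and NOD above all other strains.

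At the intercalated disc, where heart muscle cells are joined, 4 of 24 genes were called (16.7%, below the 25.7% of all genes) and all 4 were higher in 129 (median 0.04). Dsg2, the desmoglein of the heart, lay between 102 and 138 CPM in 129 hearts with a median of 132, against 53.6 to 69.3 CPM with a median of 64.8 in NOD hearts (0.99 ± 0.07, adjusted p = 8.38e-18). Gja1, the main gap junction protein, was at 0.50 and Ctnna1, alpha-catenin, at 0.47, with no overlap for any of the 3 or for Plekha7. Of 18 atrial and conduction genes 2 were higher and 1 lower (16.7% called, median 0.06), with 1 to 2 higher and 0 to 1 lower when 1 library was left out. Gja5 lost its call when any 1 of 11 libraries was left out, and Cacna1g when any 1 of 10 was.

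In adrenergic, endothelin and angiotensin signalling 4 genes were higher and 4 lower of 25 (32% called, median -0.04), and their summed level did not overlap, at 1361 to 1484 CPM in 129 and 1123 to 1241 CPM in NOD. The angiotensin receptor Agtr1a (chromosome 13, 30336441 to 30382867) lay between 42.2 and 50.5 CPM in 129 hearts with a median of 46.1, against 11.4 to 18.1 CPM with a median of 15.2 in NOD hearts. It was higher in 129 by 1.58 ± 0.13, adjusted p = 2.40e-15, and NOD lay below the other 6 strains (16.4 to 82.9 CPM). Ace, the enzyme that makes angiotensin II, was lower in 129 at -0.79 ± 0.14, adjusted p = 4.71e-06, with no overlap. Higher in 129 were 3 genes of the cyclic AMP pathway, the cyclases Adcy5 (0.61) and Adcy6 (0.43) and the phosphodiesterase Pde3a (0.95 ± 0.13, adjusted p = 1.15e-08). Npr3, at -0.26, and Adra1d, at -0.75, were also lower, and the call of Adra1d was lost when any 1 of 5 libraries was left out. Without 129 replicate 4 the list had 2 lower genes.

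**Figure D4:**
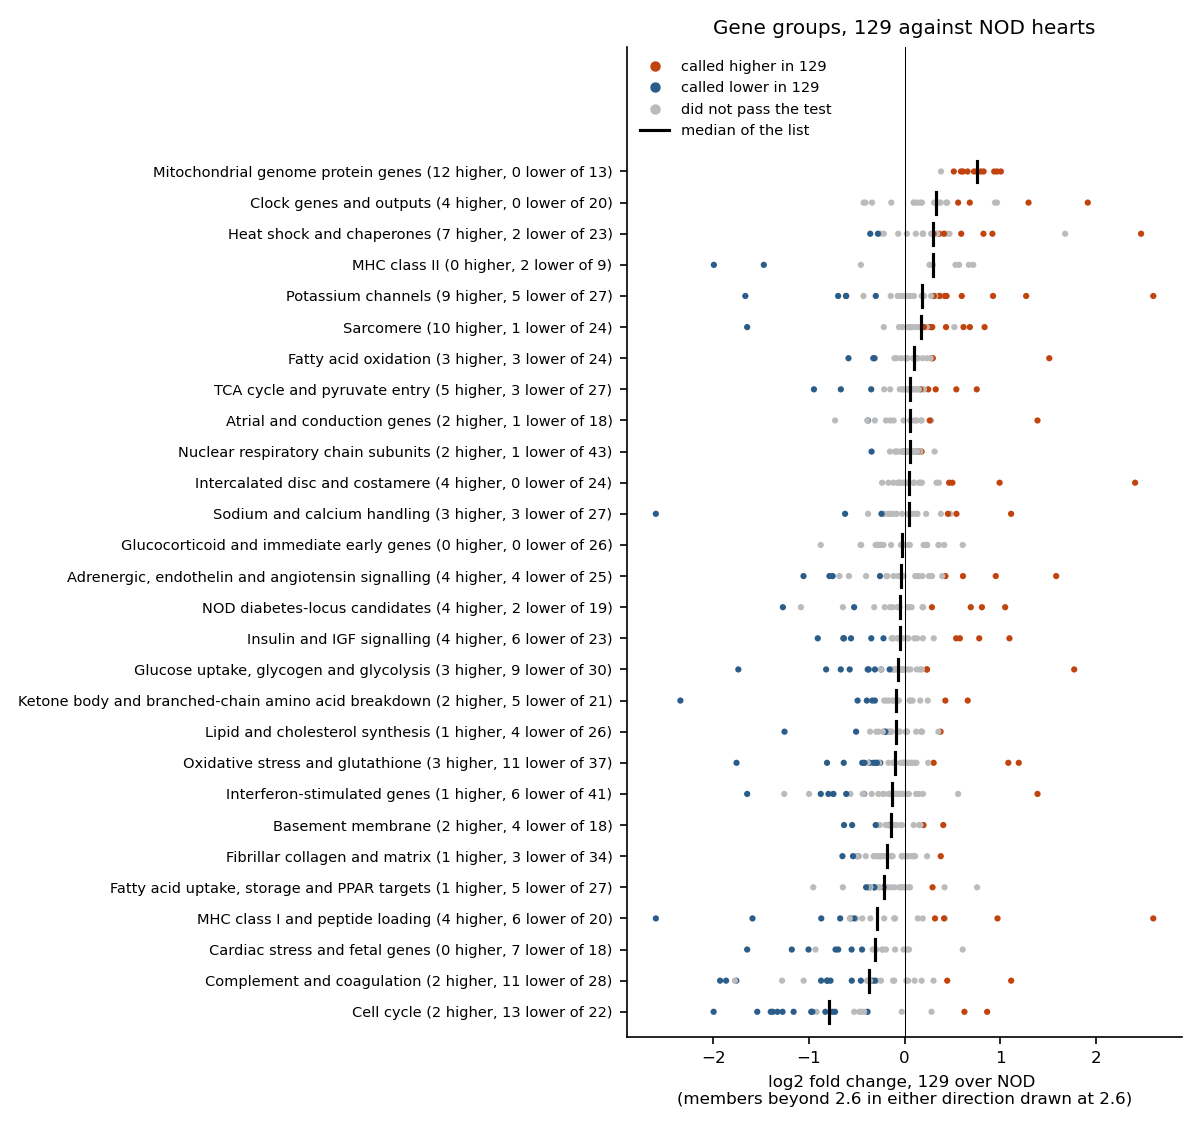
Log2 fold changes of 129 over NOD for the members of 28 gene groups, 1 row per group and 1 point per tested gene, ordered by the group's median (black bar), with counts of called members beside the names. Members beyond 2.6 log2 units in either direction are drawn at that value. The mitochondrial genome lies to the right of 0 as a whole, while most groups hold called members on both sides.

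Some NOD libraries had high levels of lymphocyte genes, and the counts of the immune lists changed without them. The summed level of the B and plasma cell markers lay between 5.54 and 15.3 CPM in 129 and between 4.73 and 301 CPM in NOD, with the library NOD_3 at the top. NOD_1, NOD_4, NOD_5 and NOD_8 were at 56.8, 20.4, 63.5 and 49.5 CPM, also above all libraries of 129. NOD_2, NOD_6 and NOD_7 were at 4.73 to 6.09 CPM. The T and NK cell sum was 6.6 to 10.1 CPM in 129 and 5.37 to 23.2 CPM in 7 NOD libraries, while NOD_5 was at 209 CPM. Lck and Cd4, of T cells, reached 33.1 and 24.7 CPM in NOD_5, and Igkc, the kappa light chain of antibodies, 61.7 CPM in NOD_3. High values of Igkc were not limited to NOD, and it ran from 0.503 to 57.9 CPM over the libraries of AJ. Of 13 tested B and plasma cell markers 12 were called, all lower in 129, with a median of -2.35, and of 9 T and NK cell markers 5, all lower, with a median of -1.53. Without NOD_3 the B cell count was 1, and without NOD_3 and NOD_5 it was 0. The T cell count was 3 without NOD_5, 1 without both, and 8 without NOD_7 or without NOD_8.

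**Figure D5:**
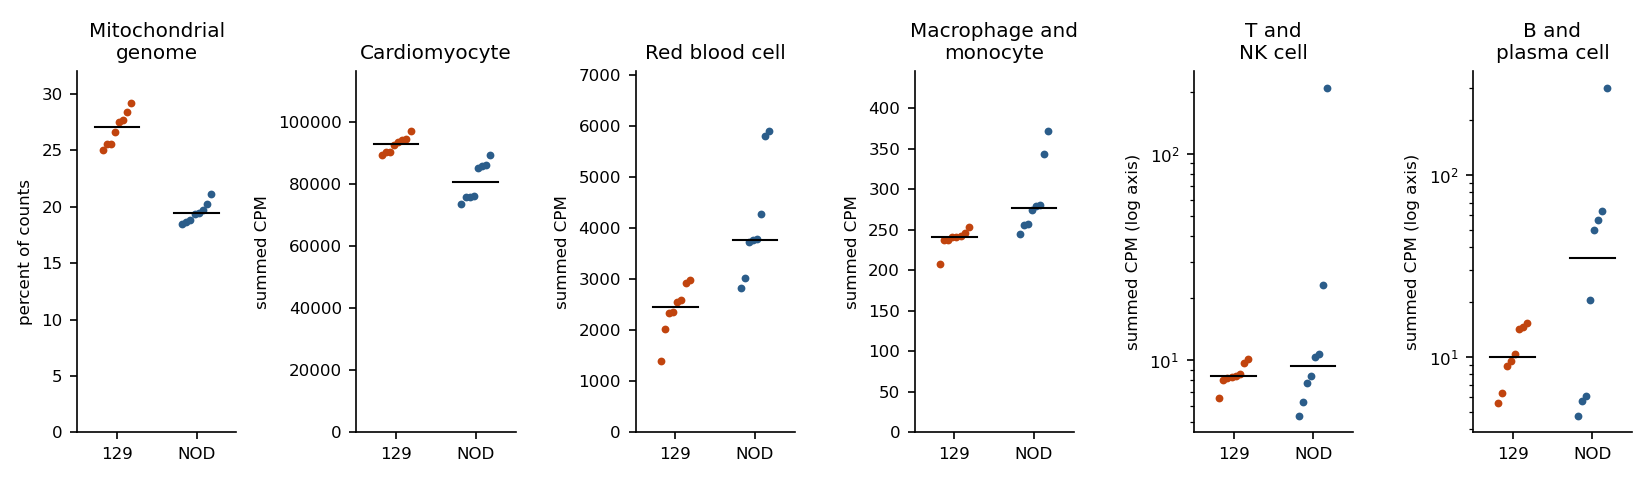
Share of counts from the mitochondrial genome, and summed CPM of cell type markers, in each library of 129 (left) and NOD (right), with the line at the median of 8. The mitochondrial share and the cardiomyocyte sum do not overlap. NOD_5 lies far above the rest for T and NK cell markers, and NOD_3 for B and plasma cell markers (log axes). For the latter, NOD_1, NOD_4, NOD_5 and NOD_8 also lie above all libraries of 129.

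The cell cycle list also changed with these libraries. Of 22 genes 2 were higher and 13 lower in 129 (68.2% called, median -0.79). Top2a, needed to untangle replicated DNA, lay between 1.32 and 3.76 CPM in 129 hearts with a median of 2.34, against 2.51 to 27.8 CPM with a median of 4.09 in NOD hearts, and the highest value was that of NOD_5. Without NOD_5 the list had 3 higher and 4 lower genes, and without both libraries 3 higher and 1 lower. Without 129 replicate 2 the lower genes numbered 8. Ccnd2, a D-type cyclin, did not follow this and was higher in 129 with no overlap (0.86 ± 0.11, adjusted p = 1.69e-09, or 0.89 ± 0.12 without both libraries, adjusted p = 1.45e-08).

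The class II genes of the major histocompatibility complex, which present antigen to helper T cells, changed with these libraries in the opposite sense. Over all libraries 0 of 9 were higher and 2 lower in 129 (22.2% called), the low-level genes H2-Ob and H2-DMb2. H2-DMb2 was at -1.99 alone, and summed with its near-identical copy H2-DMb1 it was at -0.27 ± 0.34, adjusted p = 0.622, so it is uncertain how these 2 genes share their reads. Without NOD_3 alone 4 were higher and 0 lower, and without NOD_5 alone 1 was higher and 2 were lower. Without NOD_3 and NOD_5 neither H2-Ob nor H2-DMb2 passed and 5 others were higher in 129. H2-Ab1 had a median of 13.9 CPM in 129 (12.2 to 17.7), against 6.89 CPM in NOD (4.16 to 23.1), and its log2 fold change without both libraries was 1.33 ± 0.30 (adjusted p = 0.000426). With all libraries the same gene was at 0.72 ± 0.30, adjusted p = 0.0706 and did not pass. H2-Eb1, H2-Aa, H2-DMb1 and the invariant chain Cd74 were higher by 1.29, 1.03, 0.96 and 1.24 without both libraries. The fit without both libraries was chosen after the data were seen.

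The class I genes differed by gene rather than as a group, with 4 higher and 6 lower of 20 (50% called, median -0.29) and 3 lower without NOD_3. H2-K1, a classical class I gene, had a median of 63.1 CPM in 129 hearts (lowest 47.5, highest 96.3), against 33.2 CPM in NOD hearts (lowest 23.96, highest 53.1) (0.97 ± 0.23, adjusted p = 8.90e-04), with ranges that overlap. H2-T22 and H2-T10 are near-identical non-classical genes, and they took opposite levels, as Atp5g2 and its partner did. H2-T22 lay between 9.32 and 12.1 CPM in 129 hearts with a median of 11.2, against 0.110 to 1.26 CPM with a median of 0.574 in NOD hearts. H2-T10 ran from 0.499 to 1.51 CPM over the 129 libraries, around a median of 1.27, against 6.24 to 21.4 CPM around 8.25 over the NOD libraries. Their sum, with an overlapping non-coding gene, was 13.4 ± 1.26 CPM in 129 and 10.46 ± 5.16 CPM in NOD and did not pass the test (log2 fold change 0.36 ± 0.16, adjusted p = 0.0858). Nlrc5, the transcriptional activator of class I genes, was lower in 129 (-1.59 ± 0.37, adjusted p = 7.36e-04), and Tapbp, which loads peptide, was higher (0.41 ± 0.07, adjusted p = 4.13e-06).

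Interferon-stimulated genes had 1 higher and 6 lower of 41 in 129 (17.1% called, below the 25.7% of all genes, median -0.14), or 1 and 4 without NOD_3 and NOD_5. Xaf1 was the higher one and lay between 12.1 and 16.7 CPM in 129 hearts with a median of 14.2, against 4.10 to 6.71 CPM with a median of 5.55 in NOD hearts (1.39 ± 0.16, adjusted p = 6.26e-11). Rsad2 and Oasl2 were lower at -0.80 ± 0.18, adjusted p = 3.36e-04 and -0.88 ± 0.20, adjusted p = 5.67e-04, without overlap. Candidate genes of NOD diabetes loci, as far as they are expressed in heart, had 4 higher and 2 lower of 19 (31.6% called, median -0.05). Ctla4, an inhibitory receptor of T cells, ran from 1.16 to 2.64 CPM over the 129 libraries, around a median of 2.20, against 0.824 to 1.46 CPM around 1.12 over the NOD libraries (0.81 ± 0.22, adjusted p = 0.004), and Fcgr2b, an inhibitory antibody receptor, was at 0.69 ± 0.15, adjusted p = 2.73e-04. Ptpn22, a phosphatase that dampens T cell receptor signals, and B2m were lower at -1.27 and -0.53, and neither was called without NOD_3 and NOD_5, where the list had 2 higher and 0 lower. B2m was also not called when any 1 of 3 libraries was left out.

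In complement and coagulation 11 of 28 genes were lower in 129 and 2 higher (46.4% called, median -0.37). Cd59a, which blocks the membrane attack complex (chromosome 2, 104095801 to 104115354), had a median of 17.4 CPM in 129 hearts (lowest 14.4, highest 19.6), against 61.8 CPM in NOD hearts (lowest 58.5, highest 68.4). Its log2 fold change was -1.87 ± 0.09, adjusted p = 8.37e-27, with no overlap. Components of the cascade were lower too, Cfb at -1.76 ± 0.38, adjusted p = 2.84e-04, Masp1 at -0.77 ± 0.14, adjusted p = 1.09e-05, C4b at -0.81, C2 at -0.81 and the receptor C5ar1 at -0.87. C4a was at -1.93 alone and at -0.82 summed with its near-identical neighbour C4b. On the side of coagulation, the inhibitor Tfpi (chromosome 2, 84432855 to 84476775) was higher in 129. It lay between 82.3 and 107 CPM in 129 hearts with a median of 102, against 40.2 to 52.4 CPM with a median of 46.1 in NOD hearts (1.11 ± 0.10, adjusted p = 2.49e-14). Tissue factor (F3), which Tfpi inhibits, was also higher (0.45 ± 0.09, adjusted p = 1.66e-04). Without NOD_3 and NOD_5 the list had 2 higher and 9 lower. The markers of macrophages, cells that make C1q, summed to 207 to 254 CPM in 129 and 245 to 372 CPM in NOD, with 2 of 15 called, Lyz2 (-0.61, not called without NOD_3) and C1qa (-0.46), both lower in 129. Their part in the complement list was not tested.

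In oxidative stress and glutathione genes 3 were higher and 11 lower of 37 (37.8% called, median -0.10). Glo1, the glyoxalase whose copy number varies among inbred strains, lay between 145 and 164 CPM in 129 hearts with a median of 159.8, against 68.8 to 82 CPM with a median of 73.1 in NOD hearts (1.08 ± 0.07, adjusted p = 1.65e-21). Gstt2 and Gstp1 were the other higher genes, at 1.19 and 0.30. Gsta4, a transferase of lipid peroxidation products, had a median of 27.5 CPM in 129 hearts (lowest 23.3, highest 34.7), against 47.1 CPM in NOD hearts (lowest 40.2, highest 58.1) (-0.81 ± 0.11, adjusted p = 8.09e-09), and the secreted superoxide dismutase Sod3 was lower at -0.64 ± 0.08, adjusted p = 2.62e-09. The mitochondrial Sod2 was at -0.29. Nnt, the mitochondrial transhydrogenase that is mutated in C57BL/6J mice, ran from 553 to 674 CPM over the 129 libraries, around a median of 608, against 754 to 896 CPM around 808 over the NOD libraries, a modest difference with no overlap (-0.42 ± 0.13, adjusted p = 0.0145).

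The heat shock list changed when single libraries were left out. Of 23 genes 7 were higher and 2 lower in 129 (39.1% called, median 0.30), but Hspa1a reached 791 CPM in 129_7, the replicate numbered 7, and 11.02 to 61.3 CPM in the other 7 libraries of 129, against 7.61 to 40.0 CPM in NOD. Without 129_7 there were 4 higher and 3 lower. Over all fits that left out 1 library the counts ran from 4 to 10 higher and from 1 to 3 lower. Hspa1a was at 2.47 alone and at 2.03 ± 0.65 summed with its near-identical copy Hspa1b. Without 129_7, Hspa1a alone was at 0.43 and did not pass the test. Hspa1l, which lies beside Hspa1a, did not overlap between the strains (0.92 ± 0.15, adjusted p = 1.71e-06). Among 20 clock genes and outputs 4 were higher and 0 lower in 129 (20% called, median 0.33). Hlf, an output factor of the clock, lay between 12.9 and 26.6 CPM in 129 hearts with a median of 17.7, against 5.77 to 9.43 CPM with a median of 7.70 in NOD hearts (1.30 ± 0.22, adjusted p = 2.70e-06). Dbp, Bhlhe41 and Nr1d2 were the others, and leaving out any 1 of 9 libraries left 2 of the 4 calls. The hour at which hearts were taken is not in the labels. Of 26 glucocorticoid-responsive and immediate early genes, which respond to handling and stress, edgeR and DESeq2 called 0, and 1 had an unadjusted p under 0.05 by edgeR (median -0.03).

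Of 34 genes of fibrillar collagen and matrix 1 was higher and 3 lower in 129 (11.8% called, against 25.7% of all genes, median -0.18). When 1 library was left out the counts ran from 0 to 1 higher and from 1 to 4 lower. Of 18 basement membrane genes 2 were higher and 4 lower (33.3% called, median -0.14), with 1 to 2 higher and 3 to 5 lower when 1 library was left out. Col4a3 and Col4a4, neighbouring genes whose products form a collagen IV network together, were both lower in 129, at -0.55 ± 0.18, adjusted p = 0.019 and -0.63 ± 0.14, adjusted p = 2.27e-04, although Col4a3 lost its call without 129 replicate 3. Fibroblast markers had 0 higher and 2 lower of 10 (20% called), endothelial markers 1 and 2 of 16 (18.75%), mural cell markers 2 and 1 of 11 (27.3%), Schwann cell and neuronal markers 0 and 1 of 10 (10%), and skeletal muscle markers 0 and 1 of 4 (25%). Acta2, the actin of smooth muscle, ran from 144 to 337 CPM over the 129 libraries, around a median of 237, against 78.3 to 134 CPM around 106 over the NOD libraries (1.12 ± 0.15, adjusted p = 2.73e-08). Of 10 adipocyte, 4 neutrophil and 1 lung and thymus markers edgeR and DESeq2 called 0, and 2, 0 and 0 of them had an unadjusted p under 0.05 by edgeR. Without NOD_3 and NOD_5 the counts of higher and lower genes were 0 and 3 for collagen and matrix and 0 and 2 for endothelial markers.

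Markers of heart muscle were high in both strains, as the tissue label says. Without NOD_3 and NOD_5 the counts of the cardiomyocyte list were 1 higher and 2 lower. Its NOD sums lay in 73691 to 76126 CPM in NOD_1, NOD_3, NOD_4 and NOD_5 and in 85155 to 89465 CPM in the other 4. Red blood cell markers had 0 higher and 6 lower of 8 (median -0.99) and summed to 1403 to 2995 CPM in 129, against 2830.0 to 5900 CPM in NOD. They include Hba-a1 and Hbb-bt (-1.77 alone, and -0.62 summed with Hbb-bs), and also Slc4a1 (-1.26 ± 0.31, adjusted p = 9.90e-04) and the haem synthesis enzyme Alas2 (-0.72). Markers of epicardium and epithelium had 0 higher and 5 lower of 7 (median -0.71), and 3 lower without 129 replicate 3 or without NOD_3 and NOD_5.

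The called genes were spread over the genome. Of 309 windows of 5 Mb with at least 20 tested genes the median share called was 25%, with quartiles of 18.75% and 32.4%. The highest share, 65.2% of 23 genes, was at 5 to 10 Mb of chromosome 14, where 12 of the 15 called genes were higher in 129. Most of these carry Gm symbols. Next came 58.3% at 175 to 180 Mb of chromosome 2, also rich in Gm genes, among which the cadherin Cdh4 was lower in 129 (-2.59 ± 0.24, adjusted p = 4.97e-14), and 55% at 5 to 10 Mb of chromosome 5, the window of Adam22 and Sri. At the other end, 6.25% of genes were called at 25 to 30 Mb of chromosome 14, 7.69% at 90 to 95 Mb of chromosome 13 and 8% at 90 to 95 Mb of chromosome 10. By chromosome, the share ran from 18.4% on X and 19.5% on 10 to 29.3% on 14, apart from the few genes of Y and the 93.3% of MT.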

How the data were processed

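RNA was sequenced from poly(A)-selected libraries of frozen heart tissue with a spike-in mix, per the labels' protocols. The deposited table holds expected counts per gene and library, of which 18.4% are not whole (tolerance 1e-06), and every gene has a count in at least 32 of the 63 libraries. A second deposited table holds log2-scale variance-stabilised values, and the submitters' processing notes name DESeq2 and GRCm38. Neither the aligner nor the counter, nor its use of strand, is given in the sources used here.

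Expected counts were rounded. Genes were filtered with edgeR 4.0.16 (filterByExpr, minimum count 10), scaled by TMM and tested with its robust quasi-likelihood test (R 4.3.3, limma 3.58.1), with the 8 strains as groups and 55 residual degrees of freedom, with Benjamini-Hochberg adjustment at 0.05. CPM are computed on TMM-scaled library sizes. The floor was set at a count of 3 in the unscaled, summed counts of the 8 libraries of a strain. It equals 0.0130 CPM in 129 and 0.0113 CPM in NOD. In a single library a count of 3 is a higher CPM. DESeq2 1.42.0, sva 3.50.0 and limma on the variance-stabilised values were alternatives. On simulated counts with 16170 genes, 86% of changes of 0.5 log2 units and 98% of 1 unit were recovered between 129 and NOD. There were 11 false calls among 15970 unchanged genes. Changes were placed only in genes at a mean of 1 log2 CPM or more, 100 of each size. Recovery in weaker genes was not simulated, and these rates hold for the simulated counts alone.

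Genes were named by rule: the 12 most changed in each direction without overlap at a mean log2 CPM of at least 2, the 8 most changed at 7 or more, up to 3 per direction in each of 42 gene lists, Nnt and Glo1, and 2 in each of the 3 windows at either end; other genes named were chosen after their values were seen. The comparison and the lists were chosen with earlier results of these data known. Near-identical copies share at least 95% identity over 50% of the shorter GENCODE M21 transcript (minimap2 2.31-r1302). Gene types and the positions of the short sequences are from GENCODE M21 (19139 genes matched, 81 not). Coordinates of genes and windows are from the deposited gene annotation. Some genes named by the rule are not reported here.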

Additional observations from a re-analysis of the deposited data

Results flagged for a closer look

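Within each strain a value was singled out where the highest or lowest of the 8 libraries was separated from the rest by more than Dixon's critical share of the range on the log2 scale, which chance does in about 1 of 20 groups. This held for 29 of 398 groups of libraries.

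The library 129_3 had 9 of them. It was highest for Atp5b (4311 CPM), Bcat2 (108 CPM), Echs1 (247 CPM), Myl2 (5632 CPM) and Ndufv1 (603 CPM). It was lowest for Ccnb1 (0 CPM), Dsg2 (102 CPM), H2-T10 (0.499 CPM) and the summed macrophage and monocyte markers (207 CPM, against 237 to 254 CPM in the other libraries of 129).

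The library 129_7 was highest for the heat shock genes Hspa1a (791 CPM, against 11.02 to 61.3 CPM in the others), Dnajb1 (182 CPM, against 27.0 to 41.9 CPM) and Hspb8 (355 CPM). It was lowest for Cep83os (0.458 CPM), Hba-a1 (1.96 CPM) and Tfpi (82.3 CPM). In the other libraries of 129, C4a was at 0 CPM in 129_4, Cd4 at 0.143 CPM and Kdr at 159 CPM in 129_6, and H2-M3 at 0.576 CPM in 129_9, each the lowest of its strain.

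Among NOD hearts, NOD_5 was highest for the summed T and NK cell markers (209 CPM, against 5.37 to 23.2 CPM in the others), Cd4 (24.7 CPM), Top2a (27.8 CPM), Bub1 (2.33 CPM) and H2-T10 (21.4 CPM). NOD_2 was highest for Ccdc66 (15.7 CPM) and lowest for Zcchc9 (8.86 CPM). Hrasls was lowest in NOD_3 (1.90 CPM), and Dsg2 (53.6 CPM) and Fmn1 (74.0 CPM) were lowest in NOD_8.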

How the results depend on the processing

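The number of called genes, 4224, lay between 3059 (only genes at a mean of 1 log2 CPM or more) and 5126 (16 libraries with 1 surrogate variable) over all alternatives, and between 3913 and 4120 without single libraries, with 1797 to 1887 higher and 2100 to 2233 lower. It was 4519 by DESeq2, 4998 with only the 16 libraries of both strains and 3697 without NOD replicates 3 and 5, a setting chosen after seeing the data. The counts of at least 2-fold, 421 higher and 742 lower, were 120 and 177 with the stricter filter, which tests fewer genes, and 53 and 101 by limma on variance-stabilised values, which are compressed at low counts. Without single libraries they ran from 396 to 425 and from 659 to 765. Summed with the copies found by the rule above, Atp5g2 turned to 0.20 and Myh7 to 0.27. The Myh7 sum is nearly all Myh6 and cannot show the direction of Myh7. H2-T10 turned to 0.36 and Ssbp2 to 0.064, and neither of these sums passed the test. The Ssbp2 sum takes in differently named genes that match over part of a transcript only. Fgd4, for example, matches at 95.7% identity over 60.8% of the shorter transcript. That sum therefore does not give the level of Ssbp2. Of 184 named genes 152 stayed called without any single library. The counts of called members per list, higher and lower, also depended on the processing. A count was taken as moved if it changed by more than a set factor, or to or from none. With only the 16 libraries 35 list counts moved and 49 did not, and with 1 surrogate variable 40 moved and 44 did not. By DESeq2 3 moved and 81 did not.

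Replicate numbers did not pair single libraries across the strains, since the deviations of same-numbered libraries correlated at -0.0634 to 0.0951 over 7 numbers. Numbers 1 to 4 were the libraries high in Xist in both strains, so the replicate block also takes up that split. The main test holds strain only, so the split is part of its spread within strains. With the replicate block 4199 genes were called, 3382 of them shared. Low counts limit what could be seen for genes near the floor.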

Other observations

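The share of called genes differed by gene type. Among unprocessed pseudogenes, which arise by duplication of a gene, 25 of 47 (53.2%) were called, 12 higher in 129 and 13 lower. Among protein-coding genes the share was 26.1% (3723 of 14270), and among processed pseudogenes 19.7% (37 of 188). Reads of such copies cannot always be placed by sequence, and the part of this in the counts was not tested.

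Without NOD_3 and NOD_5 the T and NK cell list had a median log2 fold change of 0.13, against -1.53 with all libraries, and the MHC class II list had 0.96, against 0.30. The red blood cell list, with 0 higher and 6 lower genes in both settings, had -1.12 without them and -0.99 with all libraries.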
